A study of Homo sapiens with 6 samples.

Results

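The genes described here are 31 transcriptional targets of the tumour suppressor p53, chosen by symbol from the 19470 genes of the count table. They were measured in A549 cells, a human lung adenocarcinoma line. All 31 symbols were in the table, and all 31 passed the filter on low counts. RNA sequencing compared 3 libraries of A549 cells treated by inducing dormancy (titled SF) with 3 libraries of A549 cells activated by osteoclast conditional medium (titled OC), and both groups were labelled WT for genotype. The method of dormancy induction and the base medium of each group are not stated in the sources used here, so state and medium cannot be told apart. Both groups come from a single established line. No source says that the libraries came from separate cultures, and p-values then reflect library-to-library spread alone, which may be technical. In bulk RNA, fewer cells that express a gene and less of its RNA per cell cannot be told apart.

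The p53 protein binds DNA as a tetramer and switches on genes for cell cycle arrest, DNA repair and cell death when DNA is damaged. It also switches on its own brakes, among them the ubiquitin ligase MDM2, so that its activity falls again once the damage is mended. Several of its targets are shared with other stress programmes, above all with the integrated stress response, in which ATF4 and CHOP (the product of DDIT3) act when amino acids are short or proteins misfold. The members were therefore read by role, as feedback genes, repair genes, death receptors, apoptosis genes, genes of mitochondria, redox and RNA, and stress-shared genes.

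The p53 response element consensus of 20 bases was searched on both strands, which the palindromic consensus reads alike. The windows were RefSeq promoters of GRCh38.p14, from 250 bases before to 50 bases after each annotated start site, with no spacer and at most 3 mismatches, none of them at the 4 core C and G bases. No window was held for GADD45A, TNFRSF10A, TNFRSF10B, TNFRSF10D, PHLDA3 and TP53INP1, which were therefore not searched. Windows were held for 25 of the 31 members. Of these, 7 had a match, and 1.37% of the 27305 genes with a window had one. The members were chosen as known p53 targets, so no conclusion is drawn from this difference. These 7 sites are shown because they carry the element that p53 is known to recognise. The site is in capitals, with up to 5 flanking bases on each side, 5′ to 3′ on the strand of the gene.
MDM2: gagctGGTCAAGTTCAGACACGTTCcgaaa
DDB2: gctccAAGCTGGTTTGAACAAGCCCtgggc
FAS: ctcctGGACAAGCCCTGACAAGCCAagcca
AEN: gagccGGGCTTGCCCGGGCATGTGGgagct
RPS27L: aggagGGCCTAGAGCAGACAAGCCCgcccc
FDXR: ggcccGGGCAGGAGCGGGCTTGCCCtgcgg
GDF15: tgcacAGCCATGCCCGGGCAAGAACtc

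The MDM2 stretch (chr12:68808918-68808947, plus strand) lay in an intron, 94 bases before an internal start site, with 2 mismatches. The DDB2 stretch (chr11:47214964-47214993, plus strand) had 1 mismatch, the fewest of the 7. The other stretches were FAS at chr10:88991304-88991333 and AEN at chr15:88621301-88621330, both on the plus strand with 2 mismatches. With 3 mismatches came RPS27L at chr15:63157522-63157551 and FDXR at chr17:74872991-74873020, both on the minus strand, and GDF15 at chr19:18386181-18386207 on the plus strand. All but the MDM2 site fell in an exon of a GENCODE 29 transcript of the gene, and that of GDF15 overlapped coding sequence. TRIAP1 and ZMAT3 were just outside the limit, with 4 mismatches. A match is a description of these letters and not a measured binding site, and many p53 sites are known to lie outside such windows. The levels of the 7 genes with a match differed in direction: 3 were higher in activated cells (DDB2, FAS and FDXR), 2 were lower (AEN and GDF15) and 2 did not pass the test (MDM2 and RPS27L).

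Total counts were 34128471 to 36667725 per library. The epithelial keratins KRT7, KRT8, KRT18 and KRT19 were each at 388 CPM (counts scaled to library size) or more in every library, while the epithelial marker EPCAM was at 0.403 to 1.74 CPM. Of 9 listed markers of A549 and lung epithelium, 4 rose and 3 fell in activated cells (44.4% and 33.3%). Over all tested genes these shares were 36.5% and 37.2%. Among the 9, KRT8 was 2.07-fold and CDH1 2.37-fold higher, and NQO1 was 1.64-fold and EPCAM 2.10-fold lower. CDKN2A, a locus known to be deleted in A549, had 1 count over the 6 libraries. Of 8 osteoclast markers, 1 rose and 3 fell, with a summed level of 27.2 to 29.3 CPM in dormant and 6.48 to 7.75 CPM in activated libraries, and TYROBP, DCSTAMP, OCSTAMP and CALCR had 0 counts throughout. Most of the fall in this sum was ATP6V0D2, from a mean of 19.3 to 0.0707 CPM. CTSK went from 8.31 to 6.29 CPM, ACP5 from 0.563 to 0.0486 CPM and MMP9 from 0.143 to 0.770 CPM. Of 7 myeloid markers, 4 were tested and all 4 rose. The summed level of the 7 was 133 to 144 CPM in dormant and 160 to 169 CPM in activated libraries, nearly all of it CD68. Among the untested markers AIF1 had 0 counts. PTPRC had 1 count in the dormant and 5 in the activated libraries, and FCER1G had 11 in each group. Without CD68 the myeloid sum was 1.01 to 1.90 CPM in dormant and 11.7 to 12.8 CPM in activated libraries, with CD14 8.37-fold, CSF1R 8.42-fold and LAPTM5 9.29-fold higher. All 4 stromal markers rose, from a summed 5.86 to 6.12 CPM to 10.6 to 12.0 CPM. The part of these markers in the results below was not tested.

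Levels are CPM scaled by TMM factors, and adjusted p-values come from edgeR's quasi-likelihood test with Benjamini-Hochberg adjustment over all 13336 genes tested. At an adjusted p threshold of 0.05, 8 of the 31 members were higher in activated cells (25.8%), 16 were lower (51.6%) and 7 did not pass. Over all tested genes 36.5% were higher and 37.2% were lower. A change of 2-fold or more was found in 4 members that were higher (TP53I3, TNFRSF10D, POLH and PLK2) and in 6 that were lower (GDF15, TP53INP1, BTG1, GADD45A, SPATA18 and EDA2R), against 11.2% and 11.0% of all tested genes. The median log2 fold change of the members was -0.22, and that of all tested genes was -0.02. The ranges of the 2 groups did not overlap for 25 members (80.6%), against 76.5% of all tested genes. The members thus went both ways, and the share that passed in either direction, 77.4%, was near the 73.7% of all tested genes.

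Scaling bears on the members near the threshold. When libraries were scaled by total counts, the median of all tested genes shifted by -0.14, and 7 members were higher and 21 lower. MDM2, PPM1D, TNFRSF10A, BAX and ZMAT3, which did not pass with TMM factors, were lower with total counts, while the rise of GADD45B ended. In each of the 3 fits to FPKM the first 4 of these were lower too, and the rise of GADD45B ended as well.

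**Figure D1:**
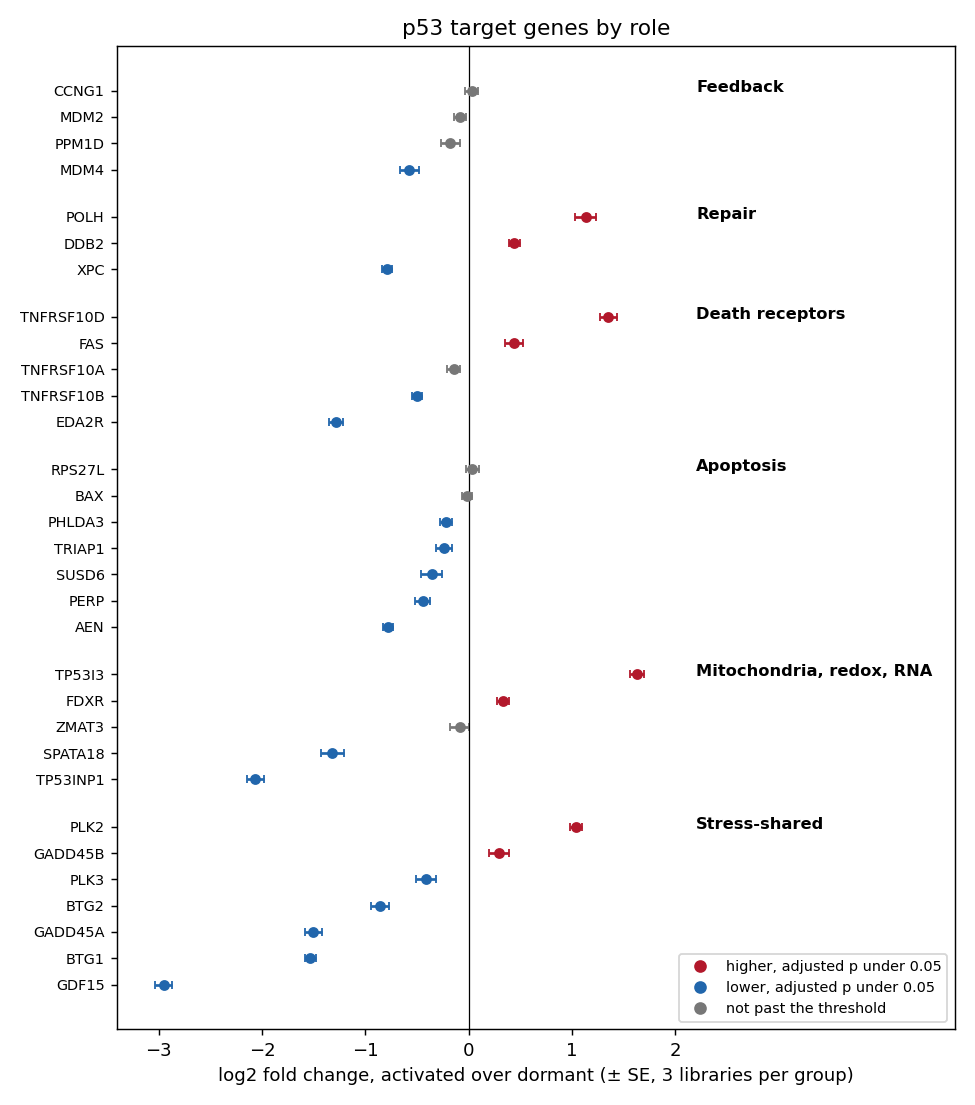
Log2 fold change of activated over dormant cells for the 31 p53 targets, grouped by role, with bars for the standard error of the fit to 3 libraries per group. Red points were higher and blue points lower at an adjusted p under 0.05, and grey points did not pass. GDF15 lies farthest to the left, at -2.95, and TP53I3 farthest to the right, at 1.63.

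Among the 4 feedback genes, 1 was lower and 3 did not pass, while 73.7% of all tested genes passed, 37.2% as lower. MDM2, the ligase that marks p53 for destruction and is itself a p53 target, had 116, 125 and 109 CPM in the dormant libraries and 109, 113 and 108 CPM in the activated ones. The groups overlapped, and the log2 fold change of -0.083 ± 0.057 (SE) did not pass (adjusted p = 0.201). With total counts it was -0.22 (adjusted p = 0.00307). MDM4, a relative of MDM2 that masks the activation domain of p53, had 25.4, 32.8 and 29.6 CPM in dormant and 19.6, 19.97 and 19.4 CPM in activated libraries. Every activated library was below every dormant one, and the fold change was 1.49-fold lower (log2 -0.58 ± 0.09 SE, adjusted p = 4.60e-05). PPM1D, the WIP1 phosphatase that reverses damage signalling to p53, went from 25.5 ± 2.91 CPM (SD, n = 3) to 22.5 ± 1.66 CPM (adjusted p = 0.0966), and passed as lower without dormant replicate 2 (log2 -0.26, adjusted p = 0.0236). CCNG1, cyclin G1, which helps a phosphatase to activate MDM2, went from 70.7 ± 2.79 to 72.1 ± 5.40 CPM (adjusted p = 0.680), and its sign turned with total counts.

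The 3 repair genes split, with 2 higher and 1 lower, against 36.5% and 37.2% of all tested genes. XPC, which detects helix-distorting lesions for nucleotide excision repair, had 148, 155 and 159 CPM in dormant and 89.9, 87.5 and 90.5 CPM in activated libraries. It was 1.73-fold lower (log2 -0.79 ± 0.05 SE, adjusted p = 2.11e-09), with a wide gap between the groups. DDB2, which recognises ultraviolet damage in the same pathway, had 53.3, 54.9 and 51.1 CPM against 73.1, 69.3 and 74.1 CPM. It was 1.36-fold higher (log2 0.44 ± 0.06 SE, adjusted p = 4.42e-06). POLH, the polymerase that copies past ultraviolet lesions, had 10.5, 11.2 and 10.1 CPM against 21.3, 26.5 and 21.8 CPM. It was 2.19-fold higher (log2 1.13 ± 0.10 SE, adjusted p = 1.48e-07), with the highest activated level in replicate 2. XPC (chromosome 3, 14145147 to 14178783) shares 23.8% of its exonic bases with an antisense gene, 8.61% with the protein-coding gene AC090004.1 and 6.63% with LSM3, all on the opposite strand. The sources used here do not state whether counting used strand, so reads there cannot be assigned with certainty.

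Of the 5 death receptor genes, 2 were higher, 2 were lower and 1 did not pass. The shares over all tested genes were 36.5% higher and 37.2% lower. In all 5 the ranges of the groups did not overlap, as for 76.5% of all tested genes. TNFRSF10B encodes DR5, a death-domain receptor for the ligand TRAIL that is induced by p53 and also by CHOP. It was the most abundant of the 5 in CPM, with 448, 442 and 430 in dormant and 301, 321 and 312 in activated libraries. It was 1.41-fold lower (log2 -0.50 ± 0.05 SE, adjusted p = 1.80e-07). TNFRSF10D encodes the decoy receptor DcR2, which binds TRAIL without passing on a full death signal. It moved the other way, from 36.1, 46.5 and 40.3 CPM to 103, 113 and 98.3 CPM, a 2.55-fold rise (log2 1.35 ± 0.08 SE, adjusted p = 1.29e-09). This was not shared by TNFRSF10C, the gene of another TRAIL decoy receptor, which is outside the 31 members. TNFRSF10C was 1.96-fold lower, from a mean of 4.60 to 2.35 CPM (adjusted p = 0.000566). TNFRSF10A, which encodes the other death-domain TRAIL receptor DR4, went from 60.9 ± 1.82 to 55.0 ± 4.52 CPM and missed the threshold (adjusted p = 0.0553). Its ranges nearly met, with the lowest dormant library at 59.40 CPM and the highest activated one at 59.36 CPM. It passed as lower in 7 of 16 alternatives, namely total counts (log2 -0.29, adjusted p = 0.00106), the correction for gene length (log2 -0.23, adjusted p = 0.00594), limma voom (log2 -0.15, adjusted p = 0.0494), the 3 fits to FPKM (adjusted p from 0.00386 to 0.00985) and the fit without activated replicate 2 (log2 -0.20, adjusted p = 0.00974). It shares 9.01% and 7.59% of its exonic bases with a pair of non-coding genes on the opposite strand.

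FAS, the receptor for FAS ligand, had 15.9, 17.0 and 16.2 CPM in dormant and 23.9, 21.4 and 21.3 CPM in activated libraries. All activated libraries were above the dormant ones, with a 1.36-fold rise (log2 0.44 ± 0.09 SE, adjusted p = 0.000307). FAS (chromosome 10, 88990582 to 89015785) shares 8.93% of its exonic bases with ACTA2 on the opposite strand. EDA2R, the receptor for the A2 form of ectodysplasin (chromosome X, 66595637 to 66639298), had 68.7, 72.5 and 64.3 CPM against 28.3, 26.3 and 30.1 CPM. It fell most among the receptors, 2.43-fold (log2 -1.28 ± 0.07 SE, adjusted p = 3.25e-10).

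The 7 apoptosis genes held no rise: 5 were lower, none of them by 2-fold, and 2 did not pass. The share that passed, 71.4%, was near the 73.7% of all tested genes, of which 37.2% were lower and 36.5% higher. AEN, a nuclease that digests DNA in dying cells (chromosome 15, 88621296 to 88632282), had 162, 158 and 154 CPM in dormant and 92.5, 92.1 and 91.0 CPM in activated libraries. It was 1.72-fold lower (log2 -0.78 ± 0.05 SE, adjusted p = 1.50e-09), and its libraries lay close together within each group. PERP, a membrane protein of desmosomes that also promotes apoptosis, was 1.36-fold lower, with 345, 367 and 351 CPM against 293, 227 and 261 CPM (adjusted p = 5.98e-05). SUSD6 was 1.28-fold lower (adjusted p = 0.00536), with its activated libraries spread from 23.6 to 33.3 CPM. TRIAP1, a small mitochondrial protein that restrains apoptosis, was 1.18-fold lower (adjusted p = 0.0112). This call ended without dormant replicate 1 (adjusted p = 0.0585) and without activated replicate 2 (adjusted p = 0.0544). PHLDA3, which competes with the kinase AKT for membrane lipids, was 1.16-fold lower (adjusted p = 0.00386), and shares 19.1% of its exonic bases with a non-coding gene on the same strand.

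BAX, the pore-forming protein of the outer mitochondrial membrane (chromosome 19, 48954815 to 48961798), had 140, 129 and 139 CPM in dormant and 136, 132 and 135 CPM in activated libraries. The activated values all lay inside the dormant range (log2 -0.016 ± 0.051 SE, adjusted p = 0.785). BAX passed as lower with total counts (log2 -0.16, adjusted p = 0.0103) and after a correction for gene length (log2 -0.23, adjusted p = 0.000434). RPS27L, a relative of the ribosomal protein RPS27 that influences the stability of p53, went from 120 ± 4.52 to 123 ± 12.4 CPM (adjusted p = 0.634), and its sign turned with total counts.

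**Figure D2:**
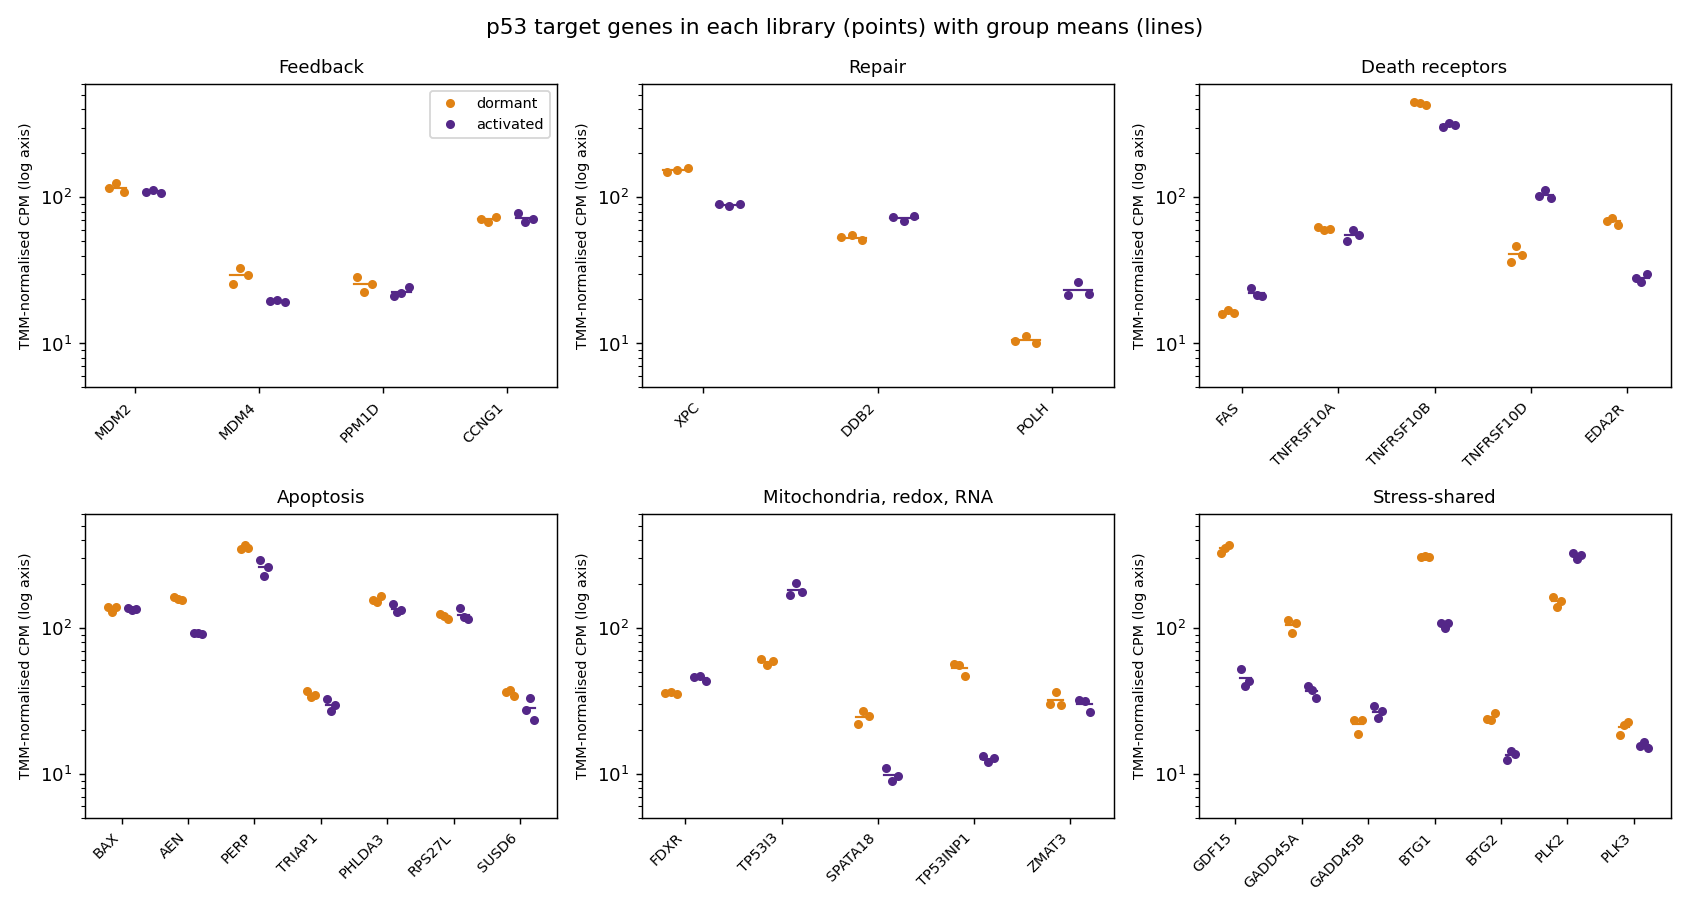
TMM-normalised CPM on a log axis for each p53 target in each library, by role, with orange points for the 3 dormant and purple points for the 3 activated libraries and lines for the group means. The gap is widest for GDF15, where dormant libraries were at 328 to 367 CPM and activated ones at 40.2 to 52.1 CPM, while the points of BAX, MDM2 and CCNG1 overlap.

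In the group of mitochondria, redox and RNA, 2 genes were higher, 2 were lower and 1 did not pass. The shares over all tested genes were 36.5% higher and 37.2% lower. TP53I3, a quinone oxidoreductase also called PIG3 (chromosome 2, 24077433 to 24085861), had 61.3, 55.7 and 59.6 CPM in dormant and 167, 203 and 175 CPM in activated libraries. Its rise of 1.63 ± 0.07 (SE) on the log2 scale was the largest of the 31 (adjusted p = 3.18e-11). FDXR, which passes electrons from NADPH to mitochondrial ferredoxins, was 1.26-fold higher, with 35.8, 36.7 and 35.4 CPM against 46.0, 46.7 and 43.3 CPM (adjusted p = 0.000169). TP53INP1, a nuclear cofactor that also promotes autophagy, had 56.9, 55.5 and 47.0 CPM against 13.2, 12.1 and 12.8 CPM, 4.18-fold lower (log2 -2.06 ± 0.09 SE, adjusted p = 1.82e-11). SPATA18, also called MIEAP, which acts in mitochondrial quality control, had 22.1, 26.9 and 24.9 CPM against 11.0, 8.93 and 9.63 CPM, 2.49-fold lower (log2 -1.32 ± 0.11 SE, adjusted p = 3.49e-08). ZMAT3, an RNA-binding regulator of splicing, went from 31.9 ± 3.75 to 30.1 ± 3.05 CPM (adjusted p = 0.411).

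All 7 stress-shared genes passed, 5 of them lower and 2 higher, with a median log2 fold change of -0.86. Over all tested genes 73.7% passed, 37.2% as lower and 36.5% as higher, and the median was -0.02. GDF15, a secreted growth factor relative that is induced by p53 and by the integrated stress response, had 328, 354 and 367 CPM in dormant and 52.1, 40.2 and 43.3 CPM in activated libraries (log2 -2.95 ± 0.08 SE, adjusted p = 3.23e-13). Its groups were the farthest apart of any member. GADD45A, which binds PCNA and activates stress kinases, had 113, 92.7 and 108 CPM against 39.8, 37.6 and 33.3 CPM, 2.84-fold lower (log2 -1.50 ± 0.08 SE, adjusted p = 3.18e-10). Its relative GADD45B, also known as a target of NF-kB and TGF-beta signalling, had 23.4, 18.9 and 23.3 CPM against 29.2, 24.1 and 27.0 CPM. The ranges just failed to meet, and the 1.22-fold rise (adjusted p = 0.0156) was lost with total counts (adjusted p = 0.171), after the length correction (0.111), without dormant replicate 2 (0.0839) and without activated replicate 1 (0.0576).

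BTG1 and BTG2 restrain proliferation and recruit the enzymes that shorten poly(A) tails. BTG1 (chromosome 12, 92140278 to 92145897) had 305, 309 and 304 CPM in dormant and 109, 100 and 109 CPM in activated libraries, 2.89-fold lower (log2 -1.53 ± 0.05 SE, adjusted p = 1.62e-12). BTG1 shares 10.4% of its exonic bases with the non-coding gene LINC01619 on the same strand. BTG2 was 1.81-fold lower, with 23.8, 23.3 and 26.2 CPM against 12.5, 14.3 and 13.7 CPM (adjusted p = 6.10e-07). Both fell, with no overlap between groups. The kinases PLK2 and PLK3, polo-like kinases that respond to stress, went opposite ways. PLK2 (chromosome 5, 58453982 to 58460260) rose 2.05-fold, from 162, 140 and 154 CPM to 324, 296 and 313 CPM (log2 1.03 ± 0.06 SE, adjusted p = 7.05e-10). PLK3 was 1.33-fold lower, from 21.0 ± 2.14 to 15.8 ± 0.740 CPM (adjusted p = 0.00131). The letters TGATGNAA, the core of the element bound by ATF4 and CHOP, were searched on both strands of the same promoter windows. They were found for 1 of the 25 members with a window, PLK3, and for 4.46% of all genes with one. GADD45A and TNFRSF10B had no window and were not searched.

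Ratios of related members within a library do not depend on scaling. They were compared for 7 pairs with 0.5 added to each count, and since the ratio of raw counts also depends on gene length, only its change is read. In all 7 pairs the groups did not overlap. Other gene pairs were not computed, and 76.5% of single tested genes did not overlap either. The two-sided exact permutation test gave p = 0.1 for each (0.1 after adjustment over the 7 pairs), the smallest that 3 libraries against 3 allow. No pair could therefore pass the threshold.

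The ratio of TNFRSF10B to TNFRSF10D, a death-signalling against a decoy TRAIL receptor, was 12.4, 9.50 and 10.7 in dormant libraries and 2.93, 2.85 and 3.18 in activated ones. This was the largest shift, -1.86 on the log2 scale. The ratio of GADD45A to GADD45B shifted by -1.80, from 4.83, 4.91 and 4.62 to 1.36, 1.56 and 1.23. PLK2 over PLK3 shifted by 1.44 and DDB2 over XPC by 1.23. The ratio of DDB2 to XPC counts was 0.359, 0.355 and 0.321 in dormant and 0.814, 0.793 and 0.819 in activated libraries. BTG2 over BTG1 shifted by 0.68 and MDM2 over MDM4 by 0.49, while TNFRSF10B over TNFRSF10A moved by -0.35, the smallest shift of the 7 in size.

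**Figure D3:**
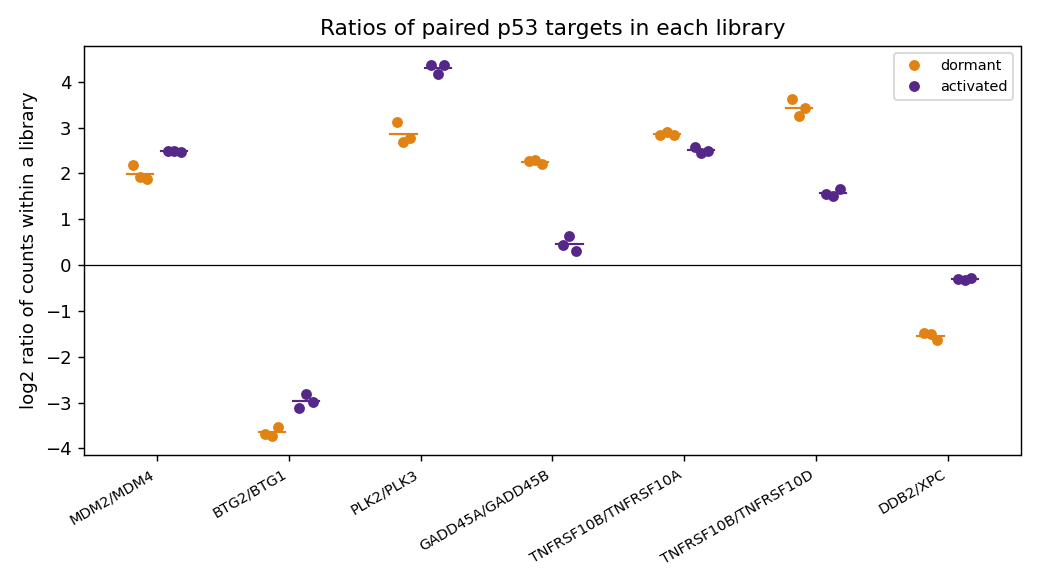
Log2 ratio of counts of 7 pairs of p53 targets within each library, with orange points for the 3 dormant and purple points for the 3 activated libraries and lines for the group means. No pair overlaps between groups, and the distances run from 0.35 for TNFRSF10B over TNFRSF10A to 1.86 for TNFRSF10B over TNFRSF10D in size.

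Levels of different genes were compared as FPKM, which divides by gene length. In dormant cells GDF15 was first of the 31, at 213 ± 13.4 FPKM (SD, n = 3), followed by BAX at 160 ± 6.01, TNFRSF10B at 115 ± 2.38 and GADD45A at 81.2 ± 7.55 FPKM. PERP came next at 77.0 ± 3.21 FPKM, within the spread of GADD45A. In activated cells BAX at 143 ± 2.07 and TP53I3 at 138 ± 14.5 FPKM came first and did not differ beyond their spread, followed by PLK2 at 106 ± 4.78 and TNFRSF10B at 74.2 ± 2.45 FPKM. GDF15 was 11th there, at 25.0 ± 3.40 FPKM, and GADD45A was 10th at 26.0 ± 2.33, again within their spread. The lowest member in dormant cells was POLH at 0.997 ± 0.059 FPKM, and in activated cells MDM4 at 1.78 ± 0.029 FPKM. POLH came next in activated cells at 1.98 ± 0.246 FPKM, and MDM4 lay within this spread. The length behind the FPKM of POLH was 11157 bases, while GENCODE 29 gives the gene 3540 exonic bases. For FAS, next above POLH in dormant cells, these lengths were 8010 and 4253 bases. The length behind the FPKM of RPS27L was 6110 bases, long for a small ribosomal protein relative, and GENCODE 29 gives it 9127 exonic bases. For BAX these lengths were 894 and 2587 bases, and for TP53I3 1259 and 2312 bases. The places of POLH, FAS and RPS27L in this order are therefore uncertain. Those of other members, BAX and TP53I3 among them, also depend on the lengths used.

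**Figure D4:**
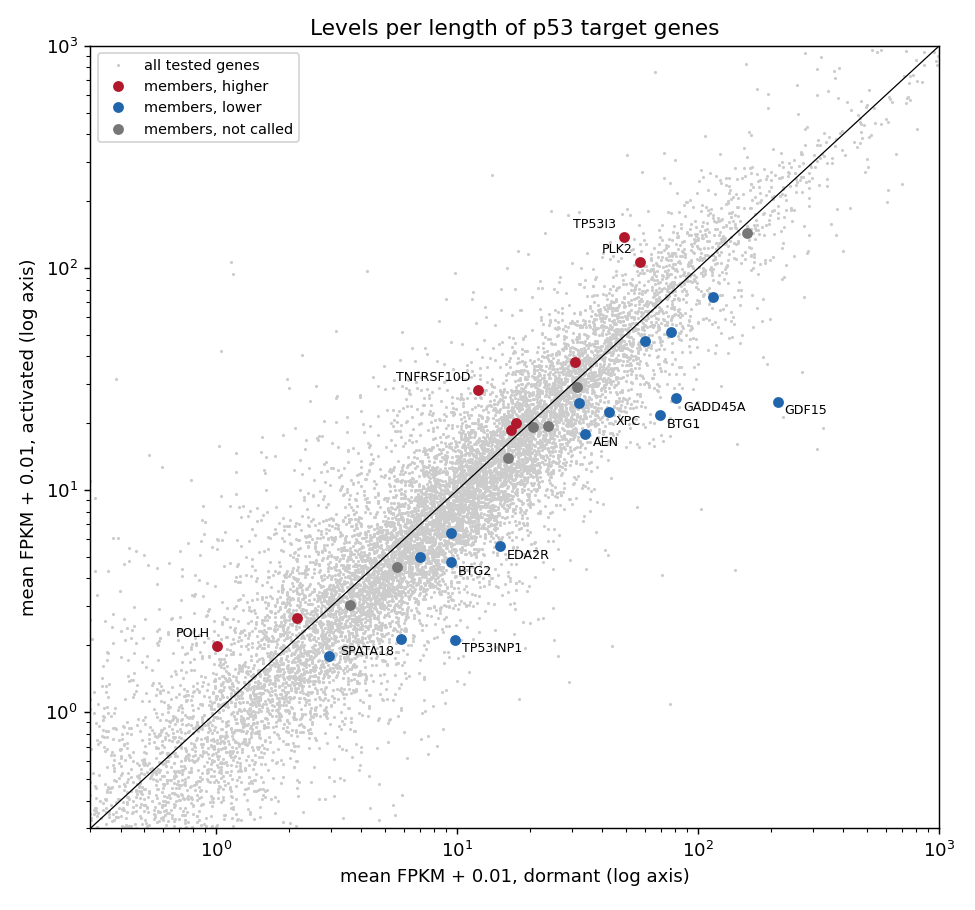
Mean FPKM plus 0.01 of activated against dormant cells on log axes, with all tested genes in grey and the 31 p53 targets in colour by their call, and a line where the levels are equal. GDF15 lies far below the line, at 213 FPKM in dormant and 25.0 FPKM in activated cells, and TP53I3 above it, at 49.0 and 138 FPKM.

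Of 16 tested regulators and partners of p53 among 18 listed, 5 were higher and 8 lower (31.2% and 50%, median log2 fold change -0.27). Over all tested genes 36.5% were higher and 37.2% lower, with a median of -0.02. TP63, a family member that binds similar sites, rose 11.1-fold, from 1.48 ± 0.154 to 16.5 ± 3.27 CPM (adjusted p = 1.85e-10). Its level stayed low per length, at 2.23 ± 0.443 FPKM in activated cells. CHEK1, a checkpoint kinase, rose 2.10-fold (adjusted p = 8.30e-09). SIRT1, which removes acetyl groups from p53, fell 3.58-fold (adjusted p = 3.77e-12), and PPP1R13B, which steers p53 towards apoptosis genes, fell 2.35-fold (adjusted p = 1.81e-07).

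Another 33 known p53 targets were listed, of which 32 were tested. Of these, 7 were higher and 17 lower (21.9% and 53.1%, median -0.34), against 36.5% and 37.2% of all tested genes (median -0.02). BBC3, encoding the killer protein PUMA, had 56.3, 54.7 and 59.0 CPM in dormant and 11.3, 11.6 and 10.1 CPM in activated libraries (log2 -2.37 ± 0.08 SE, adjusted p = 1.27e-12). SESN2, a sestrin that restrains mTORC1 and is also an ATF4 target, fell 4.34-fold (adjusted p = 1.25e-12). CDKN1A, the arrest gene p21, went from 734 ± 19.4 to 332 ± 5.27 CPM (log2 -1.15 ± 0.05 SE, adjusted p = 1.42e-11). KITLG, the ligand of the receptor KIT, rose 2.49-fold (adjusted p = 3.37e-09), and PIDD1, a death-domain scaffold, rose 2.14-fold (adjusted p = 1.22e-07). Targets outside the 31 members thus also moved both ways, and the share that passed, 75%, was near the 73.7% of all tested genes.

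Beside the stress-shared members stood 11 genes of the integrated stress response, of which 10 were lower and 1 higher, with a median log2 fold change of -3.95. The shares over all tested genes were 37.2% lower and 36.5% higher, with a median of -0.02. NUPR1, a stress-induced chromatin protein, had 79.6, 82.4 and 81.8 CPM in dormant and 1.08, 0.951 and 0.609 CPM in activated libraries. ATF3 had 70.8, 74.7 and 71.2 CPM against 1.29, 0.692 and 0.609 CPM. VLDLR, a lipoprotein receptor, was the 1 that rose (1.24-fold, adjusted p = 0.000330), a call that missed the threshold with filtered log2(FPKM + 0.1) (adjusted p = 0.0548). The part of this response in the falls of GDF15, GADD45A and the other stress-shared members was not tested.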

How the data were processed

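Per the labels' protocols, TRIzol was used to extract total RNA and a VAHTS Universal V6 kit to prepare libraries. The authors deposited whole-number counts per gene symbol for 6 libraries and a table of FPKM values. The build GRCh38 and the tools HISAT2, HTSeq and fastp are named in the submitters' processing notes. Versions, annotation and strand use are not stated in the sources used here.

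The members, roles, lists, named genes and promoter motifs were chosen with earlier results of these data known. All 31 members are named. Outside them CDKN1A and BBC3 are named, and from each list the 2 largest rises and 2 largest falls past the threshold. TNFRSF10C is named as well, beside its relative TNFRSF10D. The main fit was edgeR 4.0.16 (R 4.3.3) with TMM factors, its default filter by group and the quasi-likelihood test. It was tested on simulated data in which few genes changed, as many up as down. Such data cannot check the scaling where 73.7% of tested genes passed. Standard errors were the log2 fold change over the square root of F. Alternatives were DESeq2 size factors, total counts, DESeq2 1.42.0, limma voom (limma 3.58.1), no filter, the replicate number as a block, a gene length correction (loess span 0.3), each library left out, and limma on log2 FPKM with 1 or 0.1 added, above a mean of 0.5 FPKM, or with 1 added and no filter. Gene loci and overlaps are from GENCODE 29 (GRCh38), and promoters from RefSeq. Proteins were not used here, and 1 listed gene is not reported here.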

Additional observations from a re-analysis of the deposited data

How the results depend on the processing

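Members that were higher numbered 7 or 8 and members that were lower 15 to 21 over the 16 alternatives, against 8 and 16, and all changed genes numbered 8959 to 10009, against 9830. Of 496 values of single members, 449 had the same direction and side of the threshold, 9 lost a call, 22 gained one and 16 turned sign, and 22 of the 31 members kept both in all alternatives. Calls were lost for TRIAP1 and GADD45B, as given above, GADD45B also in the FPKM fits. No sign turn concerned a gene that had passed. With the length correction, log2 fold changes turned to 0.047 for MDM2, -0.090 for CCNG1 and 0.049 for ZMAT3. With total counts, filtered and unfiltered log2(FPKM + 1) and log2(FPKM + 0.1), CCNG1 turned to -0.11 in each, and RPS27L to -0.10, -0.10, -0.10 and -0.11. Leaving out 1 library also turned the sign of CCNG1 (range -0.029 to 0.076) and RPS27L (-0.046 to 0.089), both without activated replicate 1, of BAX (-0.052 to 0.011, without dormant replicate 1 or 3) and of ZMAT3 (-0.14 to 0.017, without dormant replicate 2). The causes were not tested. The 7 pair ratio shifts kept their sign and stayed within the spread between libraries when 1 library was left out or FPKM was used. These checks could hardly come out otherwise, so no conclusion is drawn from them. Groups that do not overlap keep their sign, and leaving out 1 of 3 libraries moves a mean by less than that spread. Gene length and total counts cancel in the change of a ratio within a library. With the replicate number as a block, 8 members were higher, 16 lower and 9789 genes changed in all. Libraries of 1 number correlated at -0.015, 0.019 and -0.0057 in their deviations from the group means, so replicate numbers were not treated as pairs, and not every library correlated best with its own number. Depth did not limit the members, whose lowest count in any library was 310.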
